A study of Homo sapiens with 102 samples.

Results

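The addition of trametinib to imatinib was examined in K562 cells by comparing 12 Combi-Seq libraries that received both drugs with 12 libraries that received imatinib and the solvent DMSO. These 24 of the 102 libraries of the series were taken by the drug pairs in their labels. K562 is an established chronic myeloid leukaemia line that grows on the BCR-ABL fusion kinase. Combi-Seq encapsulates single cells with pairs of drugs in droplets, and each drug brings a barcode fragment that is joined to that of its partner and primes reverse transcription. Every library had been incubated for 12 h, and no dose is given in the labels. The combined treatment was labelled Imatinib_Trametinib or Trametinib_Imatinib and its reference Imatinib_DMSO or DMSO_Imatinib, with 3 runs of each in the dT screen and 3 in the Bio screen, where the barcode fragments of both drug sources were swapped. Of the pair, the position that varied between trametinib and DMSO also varied in its barcode, so within one listed position the drug and its barcode cannot be told apart.

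Imatinib occupies the ATP pocket of ABL and blocks BCR-ABL, which in these cells feeds the RAS, RAF, MEK and ERK kinase chain and the transcription factor STAT5. Trametinib is an allosteric inhibitor of MEK1 and MEK2, one step above ERK. ERK activity is normally read from short-lived transcripts such as the DUSP phosphatases, the Sprouty proteins, FOS, EGR1 and MYC. The comparison therefore asks what a block at MEK adds to a block at the kinase above it.

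No single transcript passed the threshold in edgeR's test over both screens when trametinib was added to imatinib, while DESeq2 called 32 sparse ones, whereas the ribosomal protein genes together took a larger share of the counts. That share was 21.97% ± 2.46 with imatinib and DMSO and 24.27% ± 2.82 with imatinib and trametinib (SD, n = 12 each). Among the abundant erythroid, mitochondrial and metallothionein transcripts, 0 passed in that edgeR test. MT-CO3 and HBG2 each passed in 1 of the dT fits restricted to a single position of imatinib. These fits held 6 libraries each, and drug and barcode cannot be told apart in them. Over both screens the classical ERK targets were too sparse to be tested, and 1 of them could be tested in the dT screen alone.

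The libraries held 86866 to 310265 counts with imatinib and DMSO (median 238261) and 149160 to 780143 with both drugs (median 360873). A gene was taken as detected from 1 count on, and the libraries held 1030 to 3515 and 1292 to 3849 such genes. All 24 libraries had at least 1000 detected genes. The erythroid identity of K562 was visible in the globins HBG2, HBE1 and HBZ, in GATA1 and in GYPC, while 9 of 12 marker genes of other lineages were at 0 in all 24 libraries. Among the exceptions were CD3D and EPCAM, with a count in 5 and 3 libraries.

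Libraries were also compared in 12 matched pairs that shared screen, run and the listed position of imatinib. Total counts were higher with trametinib in 11 of 12 pairs, by 0.68 on the log2 scale (exact within-run permutation test, two-sided, adjusted p = 0.0402 over 5 library values). The difference was 0.34 with imatinib listed first and 1.02 with imatinib listed second. The number of cells recovered and the RNA counted per cell cannot be told apart in these pooled libraries. Detected genes were higher in 9 of 12 pairs, by 608 on average (adjusted p = 0.0563), and this difference was 28.2 genes with imatinib listed first and 1188 with imatinib listed second. The deepest libraries were those of Trametinib_Imatinib in the Bio screen, with 368984, 516683 and 780143 counts.

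Ribosomal protein genes encode the protein part of both ribosomal subunits and are among the most abundant messages of dividing cells. Without trametinib their share ran from 16.96% to 24.36% of a library's counts with a median of 22.58%, and with trametinib from 18.52% to 27.89% with a median of 24.47%. The groups overlapped widely, but the share was higher in 11 of 12 matched pairs. The difference of 2.30 percentage points passed the exact within-run permutation test (two-sided, 46656 reassignments, adjusted p = 0.0373). It was 2.26 points in the dT screen (higher in 6 of 6 pairs) and 2.35 in the Bio screen (5 of 6), and 3.28 points with imatinib listed first and 1.33 with imatinib listed second. The call was lost without dT_DMSO_Imatinib run 1, whose share was the lowest of its group at 17.5% (difference 1.89, adjusted p = 0.0587). It was also lost without Bio_Imatinib_DMSO run 2, the shallowest library (1.85, adjusted p = 0.0899), as was that of total counts in both cases (adjusted p = 0.0587 and 0.0899). Both calls were lost as well without run 1, without run 3 and without the run block. Library depth moved in the same direction, and its part in the ribosomal share was not tested.

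This difference was spread unevenly over the ribosomal protein genes. Of 77 ribosomal protein genes, 45 had a higher and 32 a lower mean share with trametinib, and these differences summed to 3.11 and -0.81 points. RPL31 of the large subunit alone went from 2.56% ± 0.69 to 3.26% ± 0.82 of counts (SD, n = 12), a difference of 0.70 points. Further positive differences included RPL34 with 0.32 and RPS15 with 0.27 points. RPL13 and RPL3, both of the large subunit, had the largest negative differences, at -0.23 and -0.19 points. With RPL31 left out, which was chosen after its value was seen, the summed share of the other genes was 19.41% ± 2.39 and 21.01% ± 2.16 (SD, n = 12) and was higher in 9 of 12 pairs. This was a difference of 1.60 points, beside 2.30 for all 77 genes. The mitochondrially encoded share, by contrast, was 4.83% ± 1.30 and 4.81% ± 1.03 (SD, n = 12), with an adjusted p of 0.943 in the same permutation test.

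In the fit across genes, counts were modelled with edgeR's quasi-likelihood test, with screen and run as a block and Benjamini-Hochberg adjustment. A gene was tested when at least 50% of the libraries used had a count, which left 1375 genes. Of these, 0 passed an adjusted p of 0.05 (0% of those tested), and the smallest adjusted p was 0.550. An unadjusted p under 0.05 was seen for 74 genes (5.38%), 48 of them higher (3.49%) and 26 lower (1.89%) with trametinib. DESeq2 called 32 of the same 1375 genes (2.33%), 16 in each direction, but each of these was counted in 12 to 22 of the 24 libraries and 0 in all of them. Over the tested genes the log2 fold change had a median of 0.27 with the TMM scaling used here and 0.13 with DESeq2's size factors. Single values below are read against these medians. The median depended on the model, with -0.17 when log2 total counts were added. It was 0.03 with imatinib listed first only and 0.86 with imatinib listed second only. In no gene did the 12 CPM values with trametinib lie entirely above or below the other 12 (0 of 1375 genes, 0%).

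Precision differed greatly with abundance. The 124 genes with a count in every library had a median SE of 0.54 on the log2 scale, and their log2 fold changes lay between -1.36 and 1.13. For 34 of these 124 genes the 95% interval of the log2 fold change lay within 1 of 0, so that a change of 2-fold or more was outside it. For the other 1251 genes the median SE was 1.43, and 12 had such an interval. Changes of less than several-fold were thus not detectable for most transcripts at this depth.

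**Figure D1:**
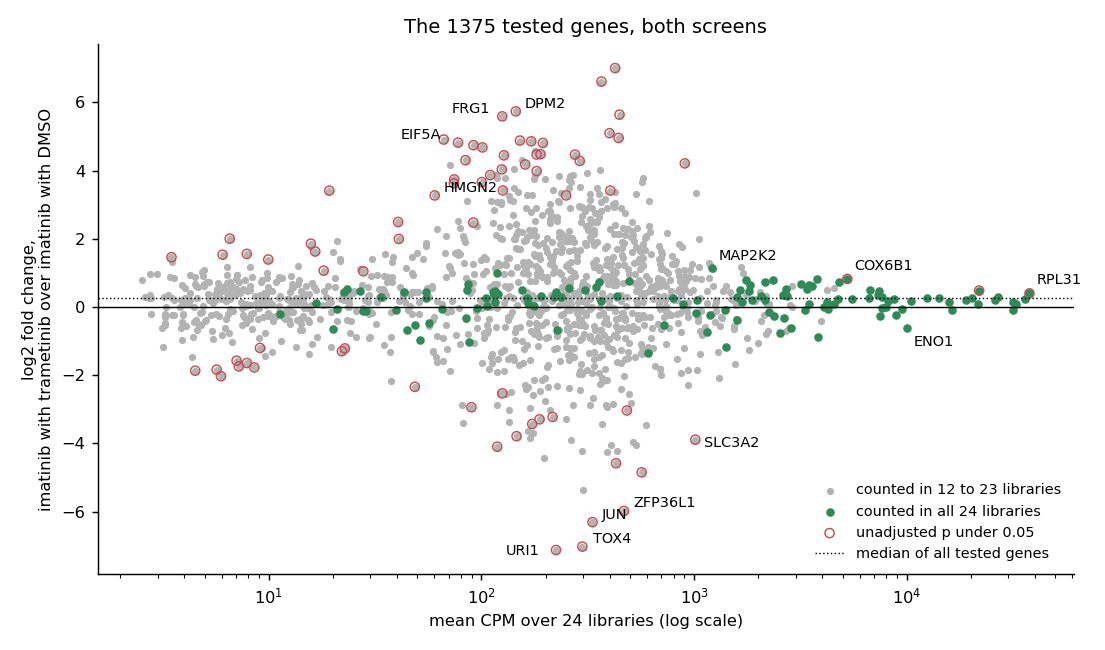
Log2 fold change of imatinib with trametinib over imatinib with DMSO against the mean CPM of the 1375 tested genes (log axis). Green points were counted in all 24 libraries, grey points in 12 to 23, red rings mark the 74 genes with an unadjusted p under 0.05, and the dotted line is the median of 0.27. The green points lie between -1.36 and 1.13, while the leading sparse genes reach beyond 5 in both directions.

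Among abundant transcripts the smallest p belonged to RPL31 (ENSG00000071082, GRCh38 chr2:101001715-101024032, plus strand, protein coding). Its normalised level without trametinib ran from 19569 to 48450 CPM with a median of 32002, and with trametinib from 26164 to 58972 CPM with a median of 42213. The ranges overlapped, yet RPL31 was the single gene of the 1375 tested (0.0727%) whose CPM moved one way in all 12 matched pairs. Its log2 fold change was 0.40 (SE 0.12, 95% interval 0.15 to 0.65, unadjusted p = 0.00297, edgeR adjusted p = 0.550), and 0.23 with DESeq2's size factors. It was 0.47 in the dT screen (SE 0.14) and 0.42 in the Bio screen (SE 0.20). Within the dT screen it passed the threshold for imatinib listed first (0.34, edgeR adjusted p = 0.000571) and for imatinib listed second (0.66, adjusted p = 5.09e-05), fits of 6 libraries each. With so few libraries each gene's variance was largely borrowed from other genes, and within one position drug and barcode cannot be told apart. RPL31 was not alone in these fits, which called 7 of 2965 and 3 of 2362 tested genes. With imatinib listed first the others were MT-CO3 (0.85, adjusted p = 1.19e-05), RPL34 (0.47), SLC3A2 (-9.26), ZFP36L1 (-11.69), SLC35E1 (-11.03) and NDUFS8 (-1.28), and with imatinib listed second HBG2 (0.44, adjusted p = 0.0178) and SSU72 (-7.89). The corresponding Bio fits called 0 of 946 and 0 of 1722 tested genes in edgeR, with 26 and 90 at an unadjusted p under 0.05. The annotated span of RPL31 overlaps TBC1D8, and its processed copy RPL31P11 had a log2 fold change of 1.04 (SE 0.48), so that reads may not be separable between them.

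Other components of the ribosome were more variable. RPS15 of the small subunit had 11012 to 26239 CPM (median 17838) without and 11749 to 31122 CPM (median 22112) with trametinib, and was higher in 11 of 12 pairs (log2 fold change 0.28, SE 0.15, edgeR adjusted p = 0.931). RPL34 differed by 0.28 with a 95% interval of -0.17 to 0.72, but passed in dT with imatinib listed first (0.47, SE 0.10, edgeR adjusted p = 0.00112). RPL13 differed by -0.10 (-0.44 to 0.24). Of the 67 ribosomal protein genes tested, 47 had a log2 fold change above 0 (70.1%) beside 62.7% of all tested genes, 5 had an unadjusted p under 0.05 in the higher direction (7.46%, beside 3.49% of all tested genes) and 0 in the lower. Their median log2 fold change was 0.25, beside 0.27 for all genes, and 0.10 beside 0.13 with DESeq2's size factors. The 39 tested genes of the large subunit had a median of 0.28 and the 28 of the small subunit 0.23.

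Of the 124 genes counted in every library, 3 had an unadjusted p under 0.05 (2.42%, beside 5.38% of all tested genes), RPL31 among them. COX6B1, a nuclear-encoded subunit of cytochrome c oxidase, was another and is named after its value was seen. It had 946 to 7388 CPM without and 3398 to 10117 CPM with trametinib, and was higher in 11 of 12 pairs (log2 fold change 0.82, SE 0.32, edgeR adjusted p = 0.738). ENO1, the glycolytic enolase, stood on the other side, from 3764 to 20920 CPM (median 12681) without and from 2372 to 14846 CPM (median 7492) with trametinib. It was lower in 10 of 12 pairs (-0.62, SE 0.31, 95% interval -1.27 to 0.03, adjusted p = 0.931). Its difference was 0.01 with imatinib listed first and -0.997 with imatinib listed second.

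**Figure D2:**
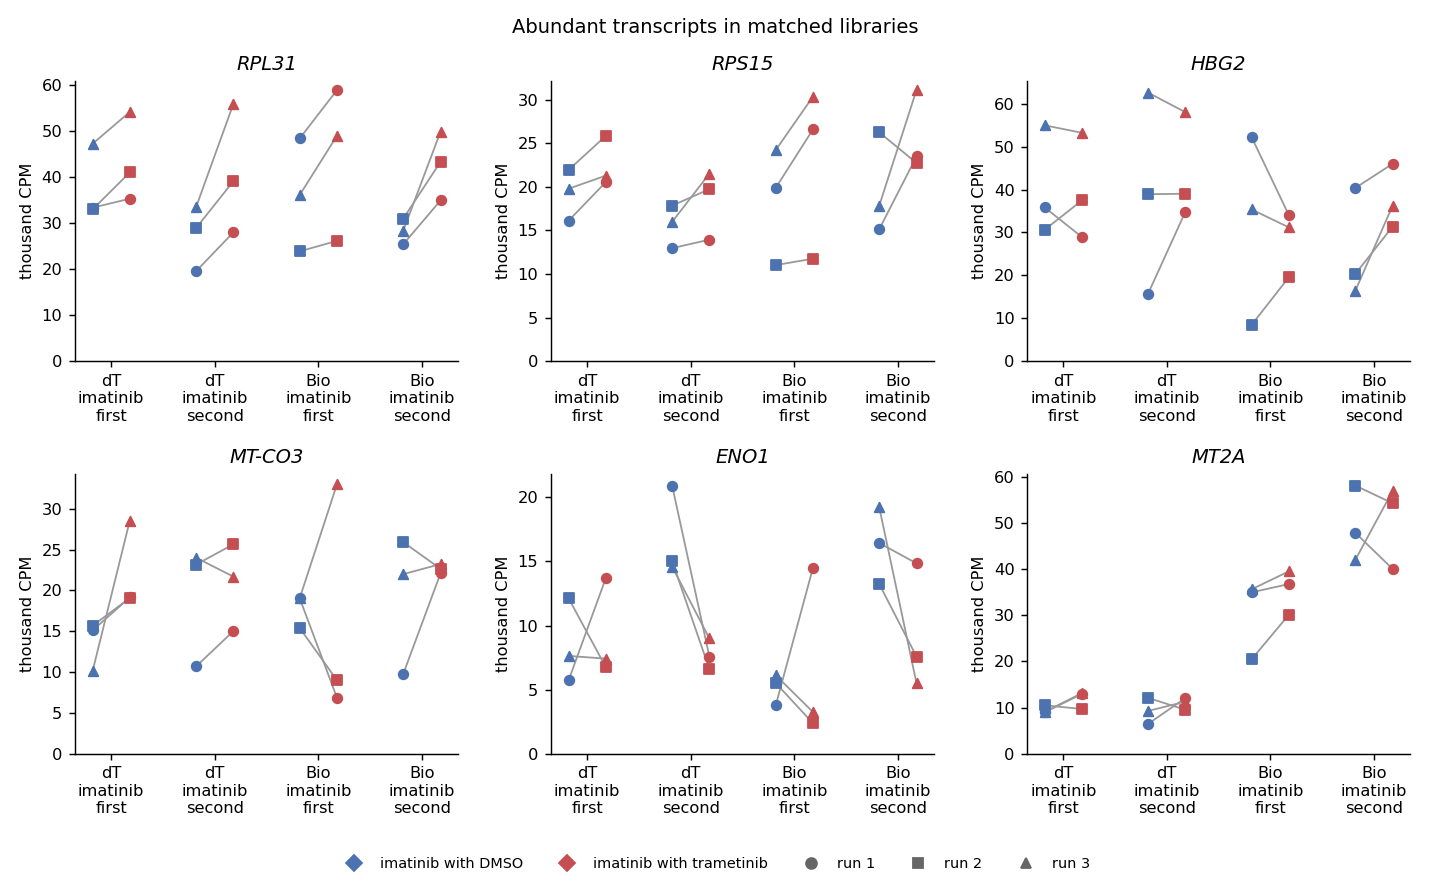
Normalised levels (in units of 1000 CPM) of 6 abundant transcripts in the 24 libraries, with lines joining matched libraries of the same run. RPL31 was higher with trametinib in 12 of 12 pairs and RPS15 in 11 of 12, ENO1 was lower in 10 of 12, and HBG2, MT-CO3 and MT2A moved in both directions.

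The erythroid programme, which imatinib is known to induce in this line, had 0 genes past the threshold over both screens. HBG2, the fetal gamma globin and the leading globin of K562, had 8485 to 62606 CPM (median 35606) without and 19596 to 58041 CPM (median 35546) with trametinib. Its log2 fold change of 0.23 had a 95% interval of -0.11 to 0.56, but in dT with imatinib listed second it passed (0.44, SE 0.10, edgeR adjusted p = 0.0178). Its reads cannot be separated with certainty from those of HBG1 and of HBE1, which its annotated span covers. The embryonic zeta globin HBZ differed by 0.91 (SE 1.08). HBQ1 and HBD were counted in 17 and 13 libraries and differed by -0.63 (SE 1.94) and -0.02 (SE 2.01). Over the 5 globins tested the median was 0.23. Of 7 tested genes of erythroid differentiation and haem supply, 3 were above 0 and the median was -0.25. They included the ferritin chains FTL (-0.25, 95% interval -0.74 to 0.24) and FTH1 (-0.72, SE 0.58) and the haem pathway enzymes BLVRB (-0.71, SE 0.69) and UROD (1.22, SE 1.43). RUNX1, the single tested member of the megakaryocyte list, differed by -0.19 (SE 2.16).

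Of the mitochondrially encoded transcripts 0 passed over both screens. MT-CO3 and MT-CO1, subunits of cytochrome c oxidase, differed by 0.21 (95% interval -0.22 to 0.63) and -0.09 (-0.46 to 0.29), and MT-ND1 of complex I by 0.01 (-0.44 to 0.46). In dT with imatinib listed first, however, MT-CO3 differed by 0.85 (SE 0.14, edgeR adjusted p = 1.19e-05), the smallest adjusted p of that fit. The large ribosomal RNA MT-RNR2 differed by 0.50 (SE 0.59), and the median of the 11 tested was 0.15. The most abundant metallothionein was the small metal-binding protein MT2A. Without trametinib MT2A had 6473 to 12103 CPM in the 6 dT libraries and 20487 to 58103 CPM in the 6 Bio libraries. How many other genes differed between the screens in this way was not counted. Its log2 fold change with trametinib was 0.20 (95% interval -0.11 to 0.50) and that of MT1X was 0.27 (-0.14 to 0.68). MT1G and MT1H differed by -0.01 (SE 0.60) and 0.84 (SE 1.09). The median of 6 tested metallothioneins was 0.56, or 0.38 with DESeq2's size factors.

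Translation factors and metabolic enzymes likewise had 0 members past the threshold. RACK1, a scaffold on the small ribosomal subunit, had a tight value of 0.08 (95% interval -0.20 to 0.35), whereas EEF2 (0.52, SE 0.71), NACA (-0.40, SE 0.91) and TPT1 (0.24, SE 0.73) were less certain. The median of 11 translation factors was 0.52. Among 9 glycolytic genes TPI1 differed by 0.32 (SE 0.62), GPI by 0.62 (SE 1.01) and HK1 by -0.21 (SE 0.83), with a median of 0.32. Of 9 chaperones, HSPE1 (0.63, SE 0.51), HSP90AB1 (-0.09, SE 0.68), HSP90AA1 (0.11, SE 1.06) and HSPB1 (0.63, SE 0.71) were the most abundant, and the median was -0.09. The redox enzymes GSTP1 (-0.26, SE 0.29), GPX4 (0.48, SE 0.72) and PRDX5 (1.75, SE 1.49) were the 3 tested of their list.

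Genes of chromatin and the cell cycle were sparser. HMGA1, a chromatin architectural protein counted in every library, differed by -0.05 (95% interval -0.52 to 0.42), while HMGB2 (-1.25, SE 1.09), HMGN1 (2.71, SE 1.54) and HMGB1 (0.44, SE 1.34) were uncertain. HMGN2, added after its value was seen, was counted in 5 of 12 libraries without and 12 of 12 with trametinib (log2 fold change 3.27, SE 1.06, unadjusted p = 0.00497, edgeR adjusted p = 0.596, DESeq2 adjusted p = 0.0201). The median of 5 HMG genes was 0.44. For mitosis the 6 tested genes had a median of 0.23, and STMN1, CENPF, TUBB and CDC20 each had an SE of 0.97 or more. The 3 tested replication genes MCM7 (-0.30), NME1 (2.58) and DNMT1 (3.47) and the 3 of the MYC and nucleolar list, NCL (3.35), FBL (0.08) and NHP2 (-0.49), had SEs of 0.72 to 2.15. BAX, the only member of the BCL2 family tested over both screens, differed by 2.24 (SE 1.78). The cytoskeletal genes MYL6 (0.24, SE 0.50), PFN1 (-0.36, SE 0.89), ACTG1 (-1.21, SE 1.58) and ACTB (-0.18, SE 1.06) had no member past an unadjusted p of 0.05. The summed CPM of all 15 cytoskeletal genes was lower with trametinib in 11 of 12 pairs, with medians of 11310 and 9538 CPM. This sum was higher in 1 of 12 pairs, the fewest of the 23 lists, and in the other lists 3 to 11 pairs were higher. It was picked after the values were seen and was not tested.

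**Figure D3:**
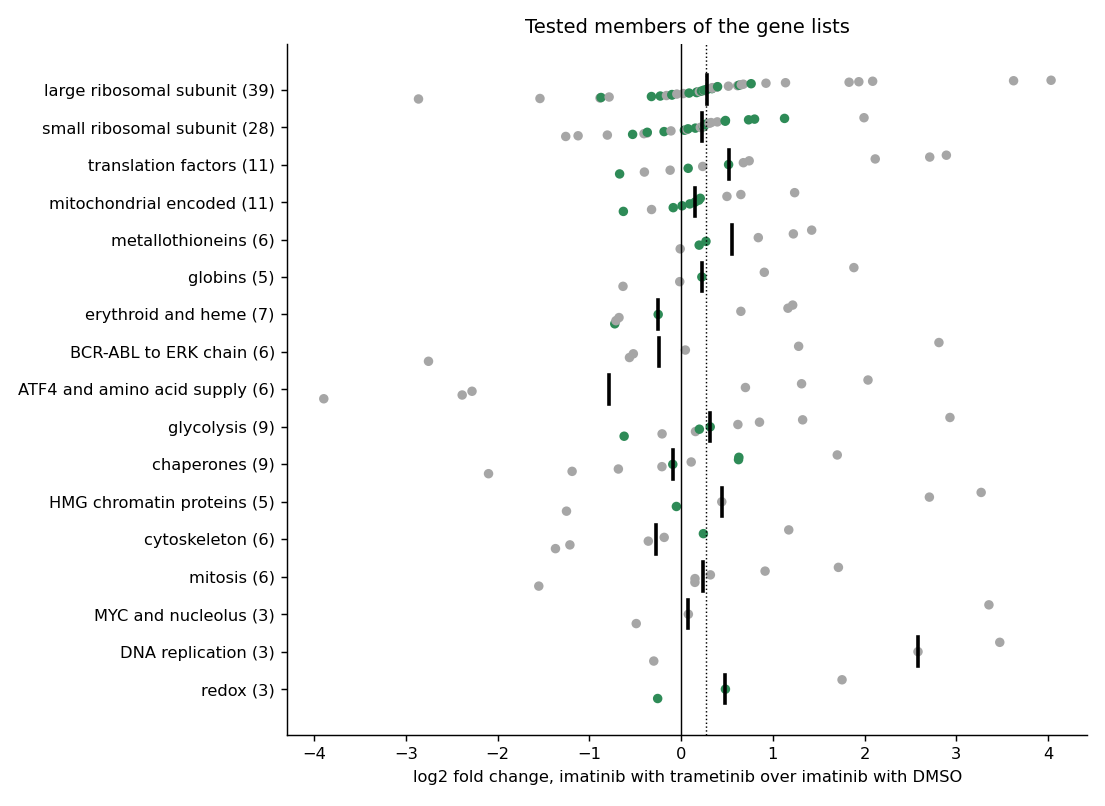
Log2 fold changes of tested members of 17 gene lists, with the number tested in brackets, green for genes counted in all 24 libraries and grey for the others. Black bars are list medians, and the dotted line is the median of 0.27 over all 1375 tested genes. The green points lie between -1.36 and 1.13, and the scatter widens in lists of sparse genes.

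Over both screens the read-out of MEK inhibition from single ERK targets was beyond these counts. Of 23 genes fixed as ERK targets, 21 were in the table and 0 reached the 50% needed for testing. Of these 21, 8 had 0 counts in all 24 libraries, among them FOS, DUSP4, SPRY1, SPRY2 and CCND1. Within the dT screen alone 1 target could be tested, with a log2 fold change of -2.52, and it did not pass. In Bio 0 could be tested. EGR1 had 1 count without and 3 with trametinib over 12 libraries each. ETV5, an ETS factor induced by ERK, was counted in 3 and 4 libraries (195 and 225 counts). MYC was the most widely counted, in 9 of 12 libraries without and 2 of 12 with trametinib, but its summed counts were 196 and 512, and 352 of the latter came from a single library. Its presence and its amount thus pointed in opposite directions.

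In the chain from BCR-ABL to ERK, 6 of 25 genes could be tested over both screens and 0 passed. MAP2K2, which encodes MEK2 and so a target of trametinib, had 0 to 2256 CPM (median 374) without and 7.93 to 3605 CPM (median 1256) with trametinib. It was higher in 8 of 12 pairs (log2 fold change 1.28, SE 1.13, 95% interval -1.05 to 3.61, edgeR adjusted p = 0.955). MAP2K1, which encodes MEK1, was counted in 2 of 24 libraries. The small GTPase HRAS differed by 2.81 (SE 1.48), the kinase ARAF by -2.75 (SE 1.82), and the 14-3-3 adaptors YWHAZ and YWHAB by -0.56 (SE 1.26) and 0.05 (SE 1.25). The target of imatinib was similarly sparse, with ABL1 counted in 5 libraries of each group and BCR in 5 and 4. STAT5 targets, the second arm below BCR-ABL, had 0 of 11 members tested over both screens and 1 in the dT screen alone (log2 fold change 0.79). PIM1 was the most widely counted of them, in 6 and 5 libraries.

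Genes of amino acid supply that answer to the stress factor ATF4 gave the lowest list median, -0.79 over 6 tested genes, or -0.99 with DESeq2's size factors. SLC3A2, the heavy chain of several amino acid transporters, was counted in 11 of 12 libraries without and 6 of 12 with trametinib. Its level ran from 0 to 5801 CPM (median 915) and from 0 to 2401 CPM (median 2.69), and it was lower in 9 of 12 pairs. The log2 fold change was -3.89 (SE 1.57, 95% interval -7.13 to -0.66, unadjusted p = 0.0204, edgeR adjusted p = 0.771), and DESeq2 gave an adjusted p of 0.0214. It was -10.46 (SE 2.24) with imatinib listed first and -0.20 (SE 1.54) with imatinib listed second. TRIB3, a pseudokinase induced by ATF4, was also lower in 9 of 12 pairs (-2.28, SE 1.28), while ATF4 itself differed by 1.31 (SE 1.32) and SHMT2, the mitochondrial serine hydroxymethyltransferase, by 2.04 (SE 1.78).

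The 16 genes with the smallest p in each direction, 8 and 8, were mostly sparse, with 12 to 24 libraries with a count, and 1 of them counted in all. On the higher side, beside RPL31, the translation factor EIF5A (GRCh38 chr17:7306999-7312463, protein coding) led. It had at most 6 counts in any library without trametinib and up to 171 with it, and was counted in 4 and 8 libraries (log2 fold change 4.82, SE 1.32, unadjusted p = 0.00129, edgeR adjusted p = 0.550, DESeq2 adjusted p = 0.00782). CD47, the surface signal that restrains phagocytosis, was counted in 4 and 11 libraries and was higher in 11 of 12 pairs, but with 6 and 35 counts in all. Per total counts this was a ratio of 3.54 (exact 95% counting interval 1.48 to 10.3). The pseudogene RPL11P3 was likewise higher in 11 of 12 pairs, with 14 and 85 counts (ratio 3.69, 2.08 to 7.03). The tryptophanyl-tRNA synthetase WARS1 (4.74, SE 1.45), DPM2 of the dolichol-phosphate mannose synthase (5.74, SE 1.69), and FRG1 (5.59, SE 1.75) with its pseudogene copy FRG1BP (3.41, SE 0.99), whose reads may not be separable, completed this side. Counting intervals cover counting error only.

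On the lower side the prefoldin-like protein URI1 led, with 8 of 12 libraries counted without and 4 of 12 with trametinib (log2 fold change -7.13, SE 1.98, unadjusted p = 0.00138, edgeR adjusted p = 0.550, DESeq2 adjusted p = 0.00015). JUN, a subunit of the AP-1 factor that acts below MAP kinases, was counted in 7 and 5 libraries with 1196 and 152 counts (-6.31, SE 2.27, edgeR adjusted p = 0.738). Of its 1196 counts, 548 came from a single library. ZFP36L1, which promotes decay of AU-rich messages, was counted in 8 and 5 libraries (-5.99, SE 2.20), with -9.87 for imatinib listed first and 2.35 for imatinib listed second. TOX4, a protein of a phosphatase 1 complex, was counted in 8 and 4 libraries (-7.03, SE 2.55). BSG, a chaperone of lactate transporters (-2.94, SE 1.04), the inositol-trisphosphate kinase ITPKA (-3.30, SE 1.23) and the pseudogenes RPL13AP3 (-2.03, SE 0.70) and RPS3AP12 (-1.87, SE 0.68) followed. Fitted values of genes this close to 0 counts depend on the prior count. The spans of 7 of the 16 genes overlap another counted gene, among them EIF5A, DPM2, URI1 and TOX4.

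Each screen was then fitted alone. In the dT screen 0 of 2210 genes passed (0%), with 138 at an unadjusted p under 0.05 (6.24%) and 100 called by DESeq2 (4.52%). In the shallower Bio screen 0 of 995 passed (0%), with 55 at an unadjusted p under 0.05 (5.53%) and 57 called by DESeq2 (5.73%). The difference between the screens was tested as an interaction, and 0 of 1375 genes passed (0%), with 99 at an unadjusted p under 0.05 (7.2%) and 56 called by DESeq2 (4.07%). The median of the large ribosomal subunit was 0.35 in dT and 0.19 in Bio, and that of the small subunit 0.16 and 0.26.

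The labels list the drugs of a pair in both orders but do not say which source each position stands for, and the effect of trametinib was compared between both positions. Of 1375 genes, 1 passed (0.0727%), with 111 at an unadjusted p under 0.05 (8.07%) and 89 called by DESeq2 (6.47%). This was NDUFS8 (ENSG00000110717, GRCh38 chr11:68030617-68036644, plus strand, protein coding), an iron-sulphur subunit of respiratory complex I. In DMSO_Imatinib it had 0, 0 and 1 counts in the dT runs and 5, 3 and 2 in the Bio runs. In Trametinib_Imatinib it had 704, 230 and 49 counts in dT and 753, 735 and 253 in Bio. These groups did not overlap in either screen. With imatinib listed first it had 2656, 2556 and 3539 counts with DMSO and 1205, 1785 and 1165 with trametinib in dT, and 868, 688 and 752 against 1097, 383 and 1275 in Bio. The log2 fold change for trametinib was -0.80 (SE 0.46) with imatinib listed first and 7.05 (SE 1.97) with imatinib listed second, a difference of -7.85 (SE 1.15, 95% interval -10.22 to -5.48, edgeR adjusted p = 0.00079). The call was lost without run 2 (adjusted p = 0.0854) or without run 3 (0.0726), where the difference was -7.64 and -8.27.

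The absence of NDUFS8 was looked up in the other drug pairs of the series, after its values had been seen. In the dT screen the remaining 15 ordered pairs, DMSO_DMSO included, gave 32 to 3539 counts over 45 libraries, all above the 3 DMSO_Imatinib libraries. In the Bio screen the other 45 libraries ranged from 0 to 1275 counts with a median of 113, so that values as low as those of DMSO_Imatinib also occurred elsewhere.

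Whether trametinib acted differently with and without imatinib was tested in 41 libraries that also held trametinib with DMSO and DMSO_DMSO, after 1 Bio library with under 1000 detected genes had been left out. The interaction passed in 0 of 1216 genes (0%), with 82 at an unadjusted p under 0.05 (6.74%) and 36 called by DESeq2 (2.96%). Trametinib against solvent alone gave 0 of 1216 in the same fit (0%), with 90 at an unadjusted p under 0.05 (7.4%). RPL31 had a log2 fold change of 0.24 (SE 0.19) against solvent and 0.43 on imatinib in this fit. HBG2 had 0.21 (SE 0.20) and 0.25, and MT-CO3 had 0.30 (SE 0.28) and 0.25. FTL had 0.71 (SE 0.26) and -0.18, an interaction of -0.89 (SE 0.32, unadjusted p = 0.00895). HMGA1 had -0.80 (SE 0.24) and -0.03, an interaction of 0.77 (SE 0.31, unadjusted p = 0.0169). ZFP36L1 had 8.65 (SE 2.89) and -4.47, an interaction of -13.12 (SE 3.64, unadjusted p = 0.000862, edgeR adjusted p = 0.444), with zero counts in many libraries on both sides. None of these passed after adjustment over the 1216 genes.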

How the data were processed

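The values deposited by the authors are unnormalised counts, in whole reads for each gene and library, after demultiplexing on the joined barcodes. The submitters' processing notes name STAR 2.4.2a and the build GRCh38. Whether counting used strand is not given in the sources used here, and no collapse of reads by molecular identifiers was described. Symbols were assigned to 24539 of 24965 genes, and coordinates come from GENCODE 29 (24646 genes matched). The table held 0 entries naming no gene and 0 columns of other samples.

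Libraries with under 1000 detected genes were to be dropped, which removed 0 of the 24. Counts were tested with edgeR 4.0.16 in R 4.3.3 (TMM, glmQLFit, glmQLFTest, 6 screen and run blocks), among genes counted in at least 50% of the libraries used, at an adjusted p of 0.05. DESeq2 1.42.0 was an alternative. CPM are TMM-scaled counts per 1000000. Library values were tested by exact permutation within blocks, and scripts were tested on simulated data. Other tools were python 3.11.15, numpy 2.4.6, pandas 2.3.3, scipy 1.17.1 and matplotlib 3.10.9.

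A run number was taken to mark libraries made together, since the study repeated its full process for each replicate. It is therefore a block. Deviations from group means within a run had an average Pearson r of 0.0163 in dT and of 0.0376 in Bio. The study calls its replicates biologically independent experiments, without saying which cultures each run used. With run as a block, p-values measure the spread between libraries after run levels are taken out. Libraries of a treatment in the same run, which differ in listed position, entered as separate units. The 24 replicate pairs held 0 identical libraries and differed well beyond sampling noise (chi-square per degree of freedom at least 61.8).

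Genes were named by rule: up to 12 per direction past the threshold, or the 8 with the smallest p where fewer passed; all tested members of the ERK target, BCR-ABL chain and STAT5 lists; up to 4 most abundant members of the other lists; and up to 5 called in each further test. The libraries, the 23 gene lists and the alternatives were chosen with earlier results of these data known. A few genes that this rule names are not reported here.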

Additional observations from a re-analysis of the deposited data

Results flagged for a closer look

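Of 20 groups of 6 libraries examined for 5 library values (2 treatments in 2 screens), 1 held a library far from the others, and chance alone gives about 1 in 20. This was the ribosomal protein share of dT_DMSO_Imatinib run 1, at 17.46% of counts among dT libraries with imatinib and DMSO, whose other 5 libraries lay between 21.9% and 24.4%. The same library had 127042 counts, the fewest in its screen among the libraries compared here.

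NDUFS8 was picked out because the trametinib effect differed between the listed positions of imatinib, by -7.85 on the log2 scale (edgeR adjusted p = 0.00079), with 0 to 5 counts in the 6 DMSO_Imatinib libraries and 49 or more in the other 18.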

How the results depend on the processing

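Depth limited the comparison, since 947 of 1375 tested genes were counted in under 20 of 24 libraries. DESeq2 gave 32 genes for both screens, 100 for dT, 57 for Bio, 56 for the screen interaction, 89 for imatinib position and 36 with and without imatinib; the cause was not tested. Without a filter on low counts there was 1 of 11581 genes in dT (NPC1), 2 of 13845 for position and 3 of 16873 with and without imatinib. In dT, 7 of 2965 genes passed with imatinib listed first only and 3 of 2362 with it listed second only. All other fits gave 0 genes, except for position. Position had 1 gene under DESeq2's size factors (of 1375) and 1 under filterByExpr (of 2966). It had 3 of 1375 under no replicate block, and 0 to 1 with a run left out. No replicate block ended the calls of total counts (0.68, adjusted p = 0.0519) and ribosomal share (2.30, adjusted p = 0.0753), and gave 0 genes in the other gene fits. With a run or 1 of 2 libraries left out, total counts differed by 0.56 to 0.73, detected genes by 500.5 to 649, the ribosomal share by 1.85 to 2.39, the mitochondrial share by -0.140 to 0.155 and the share of the top 10 genes by 0.68 to 1.90. Both calls were lost without run 1 (adjusted p = 0.176 and 0.108) or run 3 (0.193 for both) and kept without run 2 (0.0231 and 0.0309); the cause was not tested. Pairing by imatinib position, chosen after seeing the data like both single-library omissions, brought detected genes (608, adjusted p = 0.0203) and the top 10 share (1.42, 0.0244) past the threshold. In the fits over both screens, of 1381 values of named genes under alternatives, 141 had the other sign and 8 passed, all 8 by DESeq2, while edgeR called named genes such as RPL31, MT-CO3 and HBG2 in the single-position dT fits. The filters on detected genes and mitochondrial share removed 0 libraries.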
